A study of Macaca mulatta with 24 samples.

Results

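Primary motor cortex (M1) was compared with prefrontal area 46 (A46) in the rhesus monkey (Macaca mulatta), using the 12 arrays of these areas among the 24 of the series. The members were the 6 M1 and 6 A46 arrays, chosen by the area in their titles, and each animal gave 1 array per area from each hemisphere. The M1 piece was the forelimb region near the superior genu of the central sulcus, and the A46 piece came from both banks of the principal sulcus. Both groups came from the same 3 animals, numbered 1 to 3, aged 2.6 to 2.7 years, of which animals 1 and 2 were male and animal 3 was female. The animals had lived in group cages with no experimental treatment, and all were given pentobarbital and perfused with saline containing heparin before dissection. The other 12 arrays, of dorsal and ventral premotor cortex from the same animals, entered the fit only to share its estimate of the spread. The comparison asks which genes differ between the cortex that issues movement commands and the cortex that plans behaviour.

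M1 is an agranular area whose layer 5 holds very large pyramidal neurons that project to the spinal cord, and it is among the most heavily myelinated parts of the frontal lobe. A46 has a granular layer 4, is connected mainly with other association areas, and is known for working memory and planning. Each piece was intact tissue, so neurons, glia and vessels were measured together. In such bulk tissue, more cells of a type and more RNA per cell cannot be told apart.

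Values are log2 intensities of probe sets, and the 2 hemispheres of an animal were averaged before any test, so that each area had 3 values. Differences are M1 minus A46 on the log2 scale, with the standard error of the limma fit. A gene passed at a Benjamini-Hochberg adjusted p under 0.05 over 26383 probe sets. A gene is said to hold when it passed again with each animal left out and had 1 sign in all 3 animals. Of 10043 genes tested, 1473 passed (14.7%), 881 higher in M1 (8.77%) and 592 lower (5.89%). Counts of family members below are to be read beside these shares. Without animal 2, 190 genes passed, and without animal 1, 731. The 189 genes that held, counted below, are all among these 190. Holding and passing without animal 2 are thus nearly the same criterion and not separate evidence. The median size of a passing difference was 0.35, and 62 genes were at least 2-fold higher but only 2 at least 2-fold lower. Among all genes, 189 held (1.88%), 127 of them higher in M1 (1.26%) and 62 lower (0.617%). Genes best known for these areas or already described for these data (myelin, ion channel, layer, activity and other genes) made up 27 and 18 of these. They are mostly left aside in what follows. Over probe sets, 7.49% were higher and 5.36% lower (12.9% in all). For 26.5% of all genes tested, the values of the 3 animals did not overlap between M1 and A46. Most genes named below were chosen for differences that held, so their lack of overlap is a description. The balance of the directions moved with the scaling of the arrays. Of the probe sets that passed, 58.3% were higher in M1 with the deposited values, 68.9% after centring arrays on their medians, 51.4% after quantile normalization, and 47.8% with the spread of each array as a covariate.

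The lists of cell type markers set the frame for the genes below. Of 9 oligodendrocyte markers tested, 8 were higher in M1, with a median difference of 1.23, and CNP was the exception at -0.08 (adjusted p = 0.576). Their summed intensity was 19590, 24980 and 21210 in M1 of animals 1, 2 and 3, and 11190, 9935 and 12990 in A46, so the areas did not overlap and animal 2 had both the highest M1 and the lowest A46 value. Of 5 oligodendrocyte precursor markers, 4 were higher (summed intensity 806.7 to 916.5 in M1 and 622 to 671.7 in A46). The 10 astrocyte markers, with 2 higher and 0 lower, had a median of 0.11, and the 13 microglial markers, with 2 higher and 2 lower, one of 0.04. The summed intensity of the astrocyte markers was 23390 to 26620 in M1 and 23010 to 23140 in A46. That of the microglial markers was 2583 to 2790 in M1 and 2799 to 2949 in A46, so it was lower in M1 although their median was above 0. Neither sum overlapped between the areas. Of 7 cortical excitatory neuron markers 1 was higher and 3 were lower, and their summed intensity was 12120 to 12800 in M1 against 13280 to 13950 in A46. Of 6 interneuron markers 2 were higher and 2 lower. The 4 blood markers (median -0.05), the 8 endothelial and pericyte markers (0.02) and the 8 meningeal and choroid plexus markers (-0.11) had 0, 1 and 2 members higher and none lower. On the linear scale, before log2, the lowest intensity of the whole table was 6.88, so no marker had a value of 0. The part of any of these cell types in the differences below was not tested.

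The genes highest in M1 outside the best known ones included components and enzymes of the extracellular matrix. This grouping was made after their values were seen. Aggrecan (ACAN), the main chondroitin sulphate proteoglycan of the perineuronal nets that surround fast-firing neurons, was 3.45-fold higher. Its log2 intensity was 9.44, 9.85 and 9.32 in M1 of animals 1 to 3, and 7.77, 7.46 and 8.03 in A46. Every M1 value lay above every A46 value, the difference was 1.79 ± 0.17 (SE, n = 3 animals), and limma's adjusted p was 3.8e-05. HAPLN4, a link protein that fixes proteoglycans to hyaluronan in these nets, had 8.40, 8.60 and 8.31 in M1 and 6.95, 7.04 and 6.90 in A46. The difference of 1.47 ± 0.10 (adjusted p = 3.49e-06) hardly varied between animals. HAPLN2, the link protein of the nodes of Ranvier, was 1.22 ± 0.13 higher, with 8.31, 8.69 and 8.34 in M1 against 7.27, 7.04 and 7.39 in A46. ADAMTS4, a protease that cleaves aggrecan, was higher by 1.46 ± 0.16, and its difference ranged from 0.84 in animal 3 to 2.04 in animal 2. The type IV collagen chain COL4A5 was higher by 1.27 ± 0.17. The other members of the link protein family, looked up after these values were seen, did not pass. HAPLN1 differed by -0.13 (adjusted p = 0.302) and HAPLN3 by 0.01 (adjusted p = 0.938). Brevican (BCAN), another proteoglycan of the nets, differed by -0.03 (adjusted p = 0.885).

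Other genes among the 25 highest encode receptors, junction proteins, enzymes and transporters. They are grouped here by molecular role and not by the cell type that expresses them. The oligodendrocyte marker sums given above moved in the same direction, and the part of oligodendrocytes in these genes was not tested. The neuregulin receptor ERBB3 had 7.82, 8.28 and 7.36 in M1 and 6.12, 5.94 and 6.20 in A46, a 3.31-fold difference (1.73 ± 0.18, adjusted p = 5.39e-05). The sign was that of 3 of its 4 probe sets, and with the probe set of median difference ERBB3 differed by 0.05 (adjusted p = 0.827). GJB1, which encodes the gap junction protein connexin 32, had 8.38, 8.59 and 8.03 in M1 against 6.79, 6.67 and 6.83 in A46 (1.58 ± 0.12). Neither gene overlapped between the areas. The orphan receptor GPR37 was 2.80-fold higher (1.48 ± 0.14), and carnosine synthase, CARNS1, was 2.97-fold higher (1.57 ± 0.19), with a difference of 0.85 in animal 3 and 2.33 in animal 2. MAL, a proteolipid of membrane sorting, was higher by 1.24 ± 0.14. PPP1R14A, an inhibitor of myosin phosphatase, was higher by 1.32 ± 0.15, and the small heat shock protein CRYAB by 1.12 ± 0.12. SLC5A11, a sodium-coupled transporter of myo-inositol, was higher by 1.23 ± 0.13, and TTYH2, a tweety family membrane protein, by 1.14 ± 0.13. PLEKHH1 (1.44 ± 0.15), REEP3 (1.41 ± 0.13), which shapes the endoplasmic reticulum, and RASGRP3 (1.22 ± 0.16), an exchange factor of Ras, were also among the highest.

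Animal 2 had the largest difference in 23 of the 25 genes named as highest in M1, and animal 3 the smallest in 18. Their median difference was 1.15, 1.77 and 1.05 in animals 1, 2 and 3. Among the 25 named lower genes the order was another one, with the largest difference in animal 1 for 13 genes, in animal 2 for 7 and in animal 3 for 5, and medians of -0.76, -0.68 and -0.62.

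**Figure D1:**
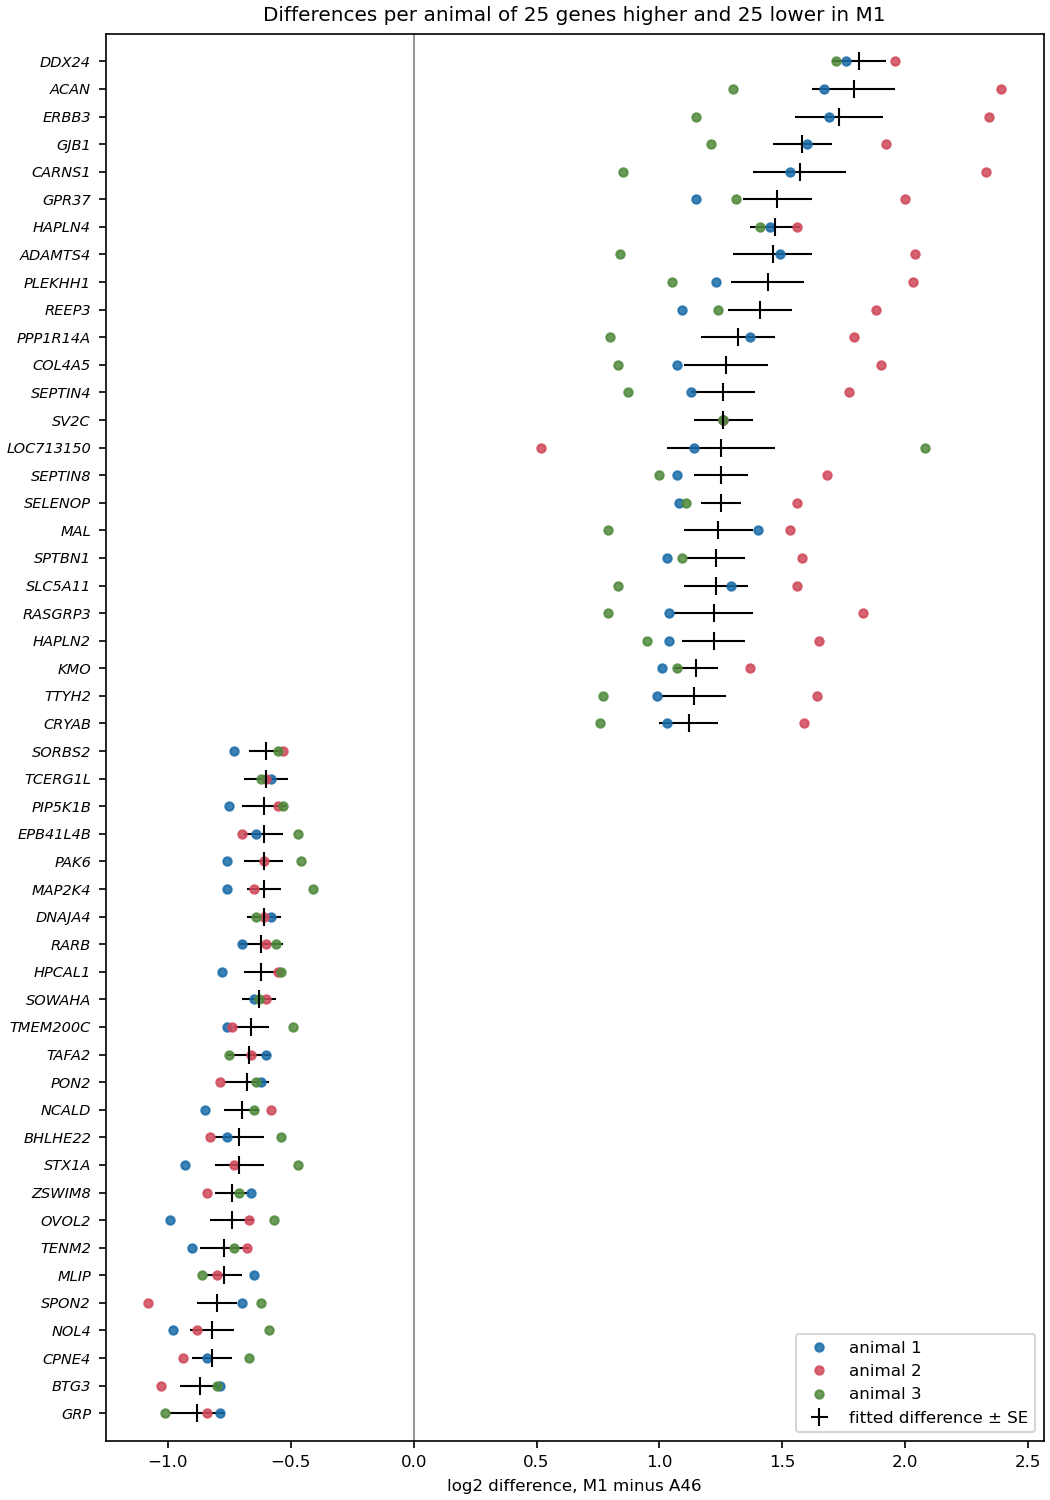
Log2 difference M1 minus A46 of the 25 genes highest and 25 lowest in M1 by the naming rule; coloured points are the 3 animals and black marks are the fitted difference ± SE. The higher genes span 1.12 to 1.81 and the lower genes -0.88 to -0.60; all points of a gene lie on 1 side of 0, which the naming rule requires.

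Several strongly higher genes belong to other cell functions. SELENOP, the plasma carrier of selenium, had 11.21, 11.92 and 11.53 in M1 and 10.14, 10.36 and 10.42 in A46, and was higher by 1.25 ± 0.08 (adjusted p = 3.64e-06). KMO, the kynurenine pathway enzyme that makes 3-hydroxykynurenine from kynurenine, had 8.76, 9.37 and 9.08 in M1 against 7.75, 8.0 and 8.01 in A46 (1.15 ± 0.09). Both separated the areas in every animal. SV2C, a synaptic vesicle glycoprotein best known from the basal ganglia, had 8.22, 7.66 and 8.05 in M1 and 6.96, 6.40 and 6.80 in A46. Its difference was nearly the same in each animal and averaged 1.26 ± 0.12 (adjusted p = 3.33e-05). The 4 striatal neuron markers had 1 member higher and 0 lower, with summed intensities of 2277 to 2419 in M1 and 1914 to 2268 in A46. DDX24, an RNA helicase, had the largest difference by the rule, 1.81 ± 0.11, with 11.44, 11.02 and 11.02 in M1 and 9.68, 9.07 and 9.29 in A46. It was carried by 1 of its 3 probe sets, and with the probe set of median difference the value was -0.03 (adjusted p = 0.913). The unnamed gene LOC713150 had 6.61, 7.19 and 7.94 in M1 and 5.48, 6.67 and 5.86 in A46. These ranges overlapped, and its difference ran from 0.52 in animal 2 to 2.08 in animal 3 (fitted 1.25 ± 0.22, adjusted p = 0.00219).

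The next 6 genes were picked from those that held after their values were seen, and they form no list that was counted. NR1H4, the bile acid receptor FXR, had 8.05, 8.27 and 8.09 in M1 and 7.21, 6.74 and 7.15 in A46, a difference of 1.10 ± 0.12 (adjusted p = 6.6e-05). G6PC1, the catalytic subunit of the phosphatase that releases glucose from glucose 6-phosphate, had 6.81, 7.02 and 7.15 against 6.21, 5.77 and 6.16 (0.94 ± 0.10). The areas did not overlap for either gene. SLC7A9, a cystine and basic amino acid transporter of the renal tubule, was higher by 0.61 ± 0.08. CREB3L3, a transcription factor of hepatic lipid metabolism, was higher by 0.60 ± 0.09, but only 1 of its 2 probe sets had this sign. CXCL13, the chemokine that attracts B cells, had 7.97, 7.63 and 7.50 in M1 and 7.08, 6.92 and 6.85 in A46 (0.75 ± 0.08, both probe sets of 1 sign). The transferrin receptor TFRC, through which cells take up iron, was higher by 0.69 ± 0.08.

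The 25 genes named as lower in M1, and so higher in A46, had differences of -0.88 to -0.60. Some genes with larger decreases also held, but were among the genes already described and so were not named by size. They included SH2D4B (-0.93), TAFA1 (-0.92), TNNT2 (-0.89) and ANKRD6 (-0.95 in the left arrays alone and -1.01 in the right), and are not a full list. The lowest difference of any gene tested was -1.37. Gastrin-releasing peptide (GRP), a neuropeptide, had 6.26, 5.90 and 6.05 in M1 and 7.04, 6.74 and 7.06 in A46, a 1.84-fold difference (-0.88 ± 0.11, adjusted p = 0.000204). CPNE4, a copine that binds membrane phospholipid when calcium rises, had 7.60, 7.83 and 8.02 in M1 against 8.44, 8.77 and 8.69 in A46 (-0.82 ± 0.08). BTG3, an antiproliferative protein, had 6.86, 6.97 and 6.98 in M1 and 7.65, 7.99 and 7.78 in A46 (-0.87 ± 0.08). For all 3 genes the values of the 3 animals did not overlap between the areas, as for 26.5% of all genes tested. NOL4 was lower at -0.82 ± 0.09 and the secreted matrix protein SPON2 at -0.80 ± 0.08, but both varied between animals: SPON2 had 8.25, 8.02 and 8.91 in M1 and 8.94, 9.10 and 9.53 in A46. In a fit without the animal as a block, NOL4 (adjusted p = 0.117), SPON2 (0.158), OVOL2 (0.133), BHLHE22 (0.0506), STX1A (0.0805), SORBS2 (0.0778) and LOC713150 (0.191) did not pass, and the other 43 genes named by size did. Of the other genes named that held, CAMK2D (adjusted p = 0.0758), TNNT2 (0.0983), TSHZ3 (0.0565) and LGALS1 (0.0738) did not pass in it either. Of the 50 genes named by size, 48 had no overlap between their 6 M1 and 6 A46 arrays, where 10.3% of all genes tested had none. LOC713150 and SPON2 overlapped.

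Adhesion and synaptic genes were among the lower ones. Teneurin 2 (TENM2), a transmembrane protein that binds latrophilins across the synapse, had 8.06, 8.17 and 8.01 in M1 and 8.96, 8.85 and 8.74 in A46 (-0.77 ± 0.10, adjusted p = 0.000204). The lowest A46 value lay well above the highest M1 value. TENM4, the other teneurin tested, differed by -0.01 (adjusted p = 0.924). Syntaxin 1A (STX1A), the plasma membrane SNARE of vesicle fusion, was lower at -0.71 ± 0.10, and synaptoporin (SYNPR), a vesicle protein, at -0.58 ± 0.08 in 1 of its 3 probe sets only. Of the 4 nectins tested, immunoglobulin-like adhesion proteins, NECTIN1 had 8.72, 8.80 and 8.89 in M1 and 9.17, 9.35 and 9.46 in A46 (-0.53 ± 0.06) and held. NECTIN3 was lower at -0.53 ± 0.15 with adjusted p = 0.0304, but 0.434 without animal 2 and 0.0825 with arrays centred on their medians. NECTIN2 (-0.05) and NECTIN4 (-0.03) did not pass. MARCHF4, a membrane ubiquitin ligase, was lower at -0.60 ± 0.08.

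**Figure D2:**
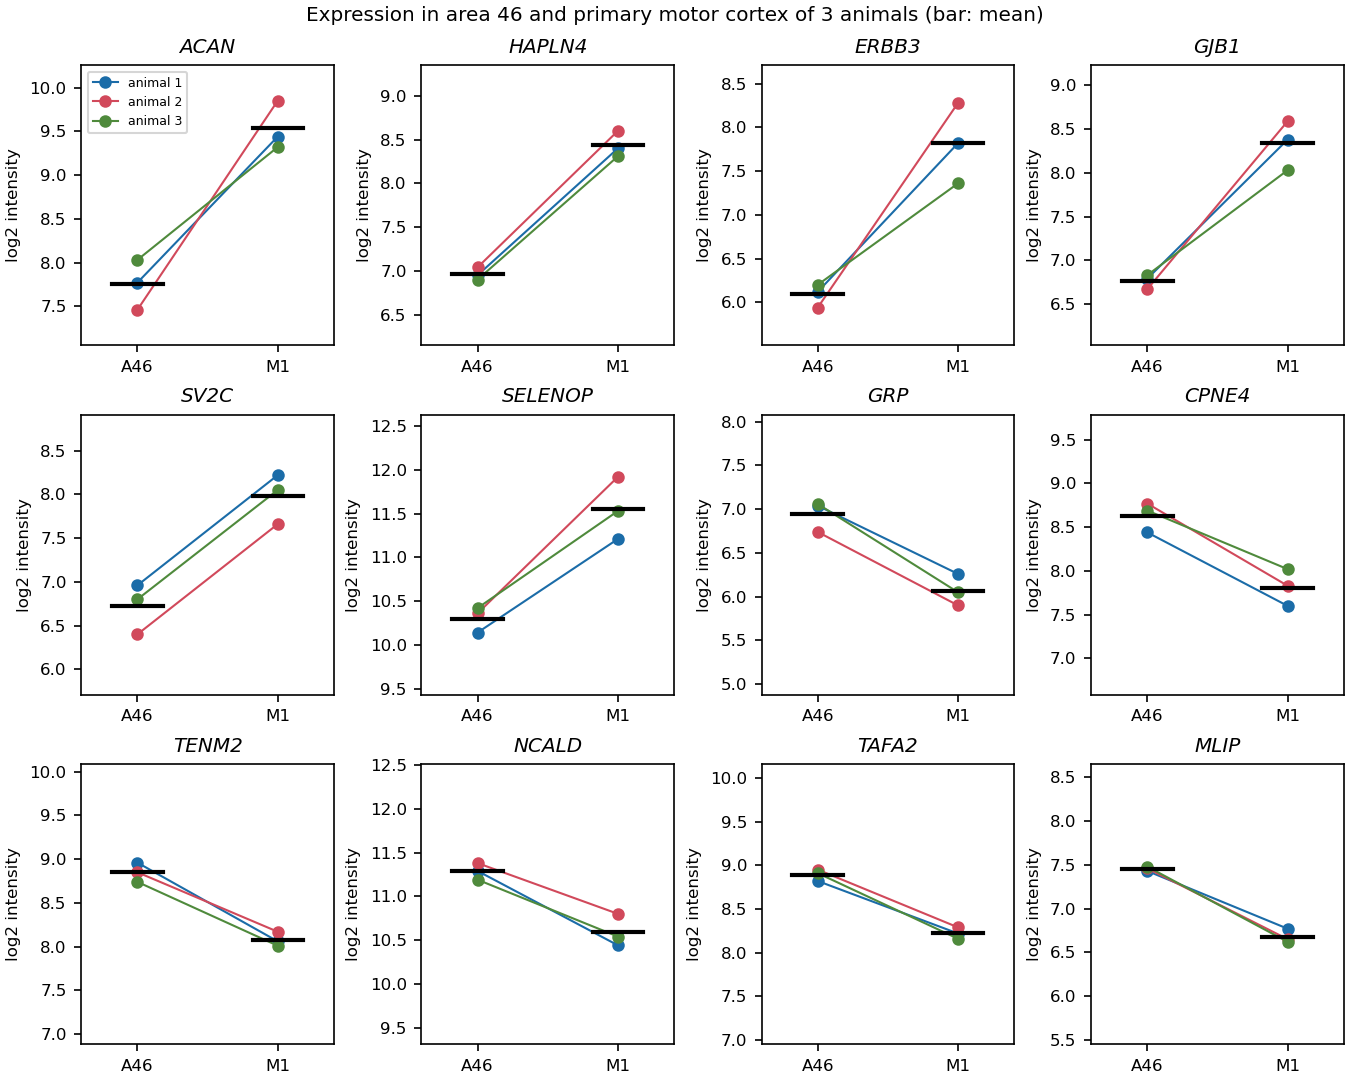
Log2 intensity of 12 genes in A46 and M1 of the 3 animals, hemispheres averaged; lines join an animal's areas, black bars are means, and each panel spans the same 3.2 log2 units. ACAN, HAPLN4, ERBB3, GJB1, SV2C and SELENOP were higher in M1 and GRP, CPNE4, TENM2, NCALD, TAFA2 and MLIP lower, in every animal.

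Calcium sensors and calcium-dependent kinases differed in both directions. Neurocalcin delta (NCALD) had 10.44, 10.80 and 10.54 in M1 and 11.29, 11.38 and 11.19 in A46, and was lower in M1 at -0.70 ± 0.07 (adjusted p = 6.97e-05). HPCAL1, a related neuronal calcium sensor, was lower at -0.62 ± 0.07. CABP1, a sensor that regulates calcium channels, went the other way, with 10.46, 10.48 and 10.28 in M1 and 9.68, 9.81 and 9.80 in A46 (0.64 ± 0.08). Over the whole list of 32 S100 and EF-hand sensor genes, the median was 0.02. Of these, 3 were higher (9.38%, against 8.77% of all genes) and 4 lower (12.5%, against 5.89%). Without animal 2 these counts were 1 and 2. Among the subunits of calcium/calmodulin-dependent kinase II, a group formed after the values were seen, CAMK2G was higher in M1 (11.01, 10.95 and 10.91 against 10.51, 10.37 and 10.37 in A46; 0.54 ± 0.07). CAMK2D was lower (9.38, 9.46 and 9.47 against 10.01, 9.66 and 10.01; -0.46 ± 0.09). Both held. CAMK2A was lower at -0.53 ± 0.14 with adjusted p = 0.023, but 0.285 without animal 2 and 0.0639 with arrays centred on their medians, while CAMK2B differed by -0.05 (adjusted p = 0.603). The kinase-like protein CAMKV was lower at -0.46 ± 0.06. The plasma membrane calcium pump ATP2B3 was higher by 0.52 ± 0.07, and SLC24A4, a sodium-calcium-potassium exchanger, lower at -0.48 ± 0.09.

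Small secreted factors of the TAFA list, which includes chemokine-like proteins of neurons, had 0 of 16 tested members higher and 4 lower, with a median of -0.15. TAFA2 had 8.22, 8.29 and 8.16 in M1 and 8.82, 8.95 and 8.91 in A46 (-0.67 ± 0.09, adjusted p = 0.000255). TAFA1 was lower at -0.92 ± 0.08, and its M1 and A46 values did not overlap. Both held, and they were the 2 lower genes of the list without animal 2; C1QL2 was lower at -0.47 but had adjusted p = 0.0786 without it. Insulin-like growth factor binding protein IGFBP2 was lower at -0.52 ± 0.06. Of 16 FGF ligands and receptors, 2 were higher and 0 lower, also without animal 2, and both held: FGF9 had 7.99, 7.92 and 7.94 in M1 and 7.35, 7.24 and 7.16 in A46 (0.70 ± 0.09), and its receptor family member FGFR2 was higher by 0.58 ± 0.07 with 4 of 4 probe sets of that sign. HHIP, an inhibitor that binds hedgehog ligands, was higher by 1.12 ± 0.13. Of 11 receptor protein tyrosine phosphatases, 0 were higher and 3 lower, with a median of -0.24 against -0.001 for all genes (1 and 5 after quantile normalization, 0 and 1 without animal 2). PTPRR, which acts on MAP kinases, was lower at -0.56 ± 0.07 and alone held.

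Some of the lower genes are best known from muscle or the actin cytoskeleton, a grouping made after their values were seen. MLIP, a protein that binds lamin A and C in muscle, had 6.77, 6.65 and 6.62 in M1 and 7.43, 7.46 and 7.48 in A46 (-0.77 ± 0.07, adjusted p = 3.55e-05). The animals were close to each other within each area. SORBS2, an adaptor of the actin cytoskeleton and muscle Z-bands, was lower at -0.60 ± 0.07. Of 14 troponin, tropomyosin and tropomodulin genes, 0 were higher and 3 lower, with a median of -0.04; without animal 2 the latter count was 2. Cardiac troponin T (TNNT2) had 7.42, 6.94 and 6.49 in M1 and 8.31, 7.67 and 7.55 in A46 (-0.89 ± 0.08), and tropomodulin 1 (TMOD1), which caps actin filaments, was lower at -0.83 ± 0.08. Of 15 spectrin, ankyrin and EPB41 genes, which build the membrane skeleton, 5 were higher and 2 lower; without animal 2 there was 1 of each. These were beta-II spectrin SPTBN1, with 8.11, 8.42 and 8.14 in M1 against 7.08, 6.85 and 7.05 in A46 (1.23 ± 0.12), and EPB41L4B, lower at -0.61 ± 0.08. Among 7 septins, GTP-binding filament proteins, SEPTIN4 (1.26 ± 0.13) and SEPTIN8 (1.25 ± 0.11) were higher and held. With the probe set of median difference SEPTIN8 was at 0.20 (adjusted p = 0.256). SEPTIN11 was lower at -0.44 in 1 of its 2 probe sets, with adjusted p = 0.159 without animal 2.

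Several regulators of Ras and of actin were higher. Of 28 Ras and Rap regulators, 7 were higher and 1 lower. RASSF2 and RASGRP3 alone held, and without animal 2 these counts were 2 and 0. Among the WIP proteins, which bind the actin regulator WASP and were looked up after the values were seen, both members tested were higher. WIPF1 had 6.54, 7.16 and 6.75 in M1 and 5.62, 5.75 and 5.79 in A46 (1.10 ± 0.13), and WIPF3 was higher by 0.62 ± 0.08, each with 3 of 3 probe sets of 1 sign. The kinases PAK6 (-0.61 ± 0.08) and MAP2K4 (-0.61 ± 0.07), an activator of JNK, were lower in M1, as was the lipid kinase PIP5K1B (-0.61 ± 0.09).

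Transcription factors and RNA-binding proteins passed in both directions. Among 18 nuclear receptors other than NR4A, 2 were higher and 4 lower. RARB, a retinoic acid receptor, had 7.65, 7.54 and 7.49 in M1 and 8.35, 8.14 and 8.05 in A46 (-0.62 ± 0.09), and without animal 2 only it and NR1H4 passed. The related receptors RORA and RORB passed in opposite directions, at 0.62 ± 0.09 and -0.60 ± 0.12, with adjusted p of 0.0566 and 0.139 without animal 2. OVOL2, a zinc finger transcription factor, was lower at -0.74 ± 0.09 and BHLHE22, a helix-loop-helix factor of projection neurons, at -0.71 ± 0.10. ETV6, an ETS repressor, was lower at -0.59 ± 0.08. Of the 3 teashirt factors tested, TSHZ2 and TSHZ3 were lower; TSHZ3 had 7.68, 7.80 and 7.35 in M1 and 8.25, 8.24 and 8.03 in A46 (-0.56 ± 0.07), and TSHZ1 did not pass (-0.20, adjusted p = 0.139) but did after quantile normalization (-0.22, adjusted p = 0.042). Of 5 CELF proteins, splicing regulators grouped after their values were seen, 4 were lower. CELF6 had 7.03, 7.14 and 7.24 in M1 and 7.70, 7.66 and 7.68 in A46 (-0.54 ± 0.07) and held. CELF3 (-0.45), CELF4 (-0.53) and CELF5 (-0.41) had adjusted p of 0.101, 0.331 and 0.195 without animal 2, and CELF1 differed by -0.06 (adjusted p = 0.627). The full list of 66 RNA-binding motif and splicing genes had 6 higher (9.09%, against 8.77% of all genes) and 8 lower (12.1%, against 5.89%). Without animal 2 these counts were 0 and 1.

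**Figure D3:**
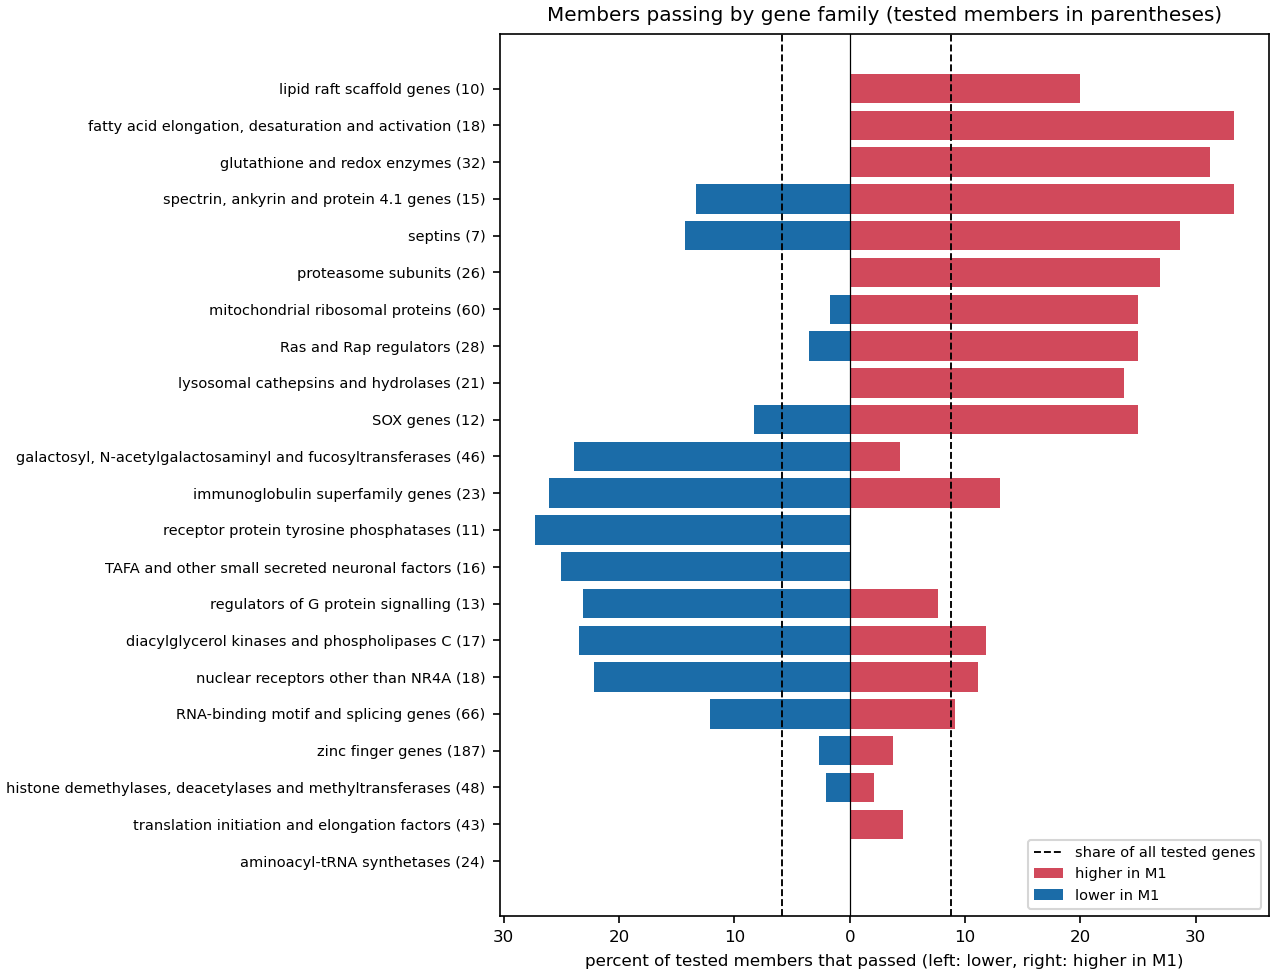
Percent of tested members that passed, higher in M1 to the right and lower to the left, for 22 gene lists, with the number tested in parentheses; dashed lines are the shares over all genes, 8.77% and 5.89%. The redox enzymes stand at 31.2% higher and the aminoacyl-tRNA synthetases at 0 either way.

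Some large families had few passing members beside the shares over all genes. Of 187 zinc finger genes 7 were higher and 5 lower, or 3.74% and 2.67%, with a median of -0.03. Of 48 histone demethylases, deacetylases and methyltransferases 1 was higher and 1 lower. Of 43 translation initiation and elongation factors 2 were higher and 0 lower. Without animal 2, 0 members of these 3 lists passed. None of 24 aminoacyl-tRNA synthetases, 16 aldehyde dehydrogenases and aldo-keto reductases and 10 adenylyl and guanylyl cyclases passed in limma; at an unadjusted p under 0.05 there were 3, 5 and 2. With the spread of each array as a covariate, 2 synthetases were higher and 1 lower, and of the aldehyde dehydrogenases and aldo-keto reductases 1 was higher and 2 lower. Without animal 3, 1 synthetase was higher and 1 lower, and 1 gene of the dehydrogenase and reductase list was lower. Among the 91 families, with 3197 tested genes, 46 had no member that held.

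The mitochondrial ribosomal proteins and the proteasome subunits had small differences, most of them above 0. Of 60 mitochondrial ribosomal proteins, which make up the ribosome that translates mitochondrial messages, 15 were higher and 1 lower, 51 differences were above 0 and the median was 0.16. The median was 0.18, 0.24 and 0.06 in animals 1, 2 and 3. Their largest difference was that of MRPL42, with 7.40, 6.81 and 7.16 in M1 and 7.06, 6.23 and 6.68 in A46 (0.47 ± 0.08). These values overlapped between areas though each animal's M1 was higher, and adjusted p was 0.152 without animal 2. Without animal 2 the family had 0 members higher and 0 lower (9 at an unadjusted p under 0.05), and without animal 1 it had 2 and 0. Of 26 proteasome subunits 7 were higher and 0 lower, 21 differences were above 0 and the median was 0.14, and 0 passed without animal 1 or without animal 2 (11 and 6 at an unadjusted p under 0.05). The immunoproteasome subunit PSMB10 had the largest of these differences, 0.41 ± 0.08, but 0.24 (adjusted p = 0.0965) with its probe set of median difference. Of 19 citric acid cycle and creatine kinase genes 2 were higher and 0 lower, with a median of 0.14, and 0 passed without animal 2.

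**Figure D4:**
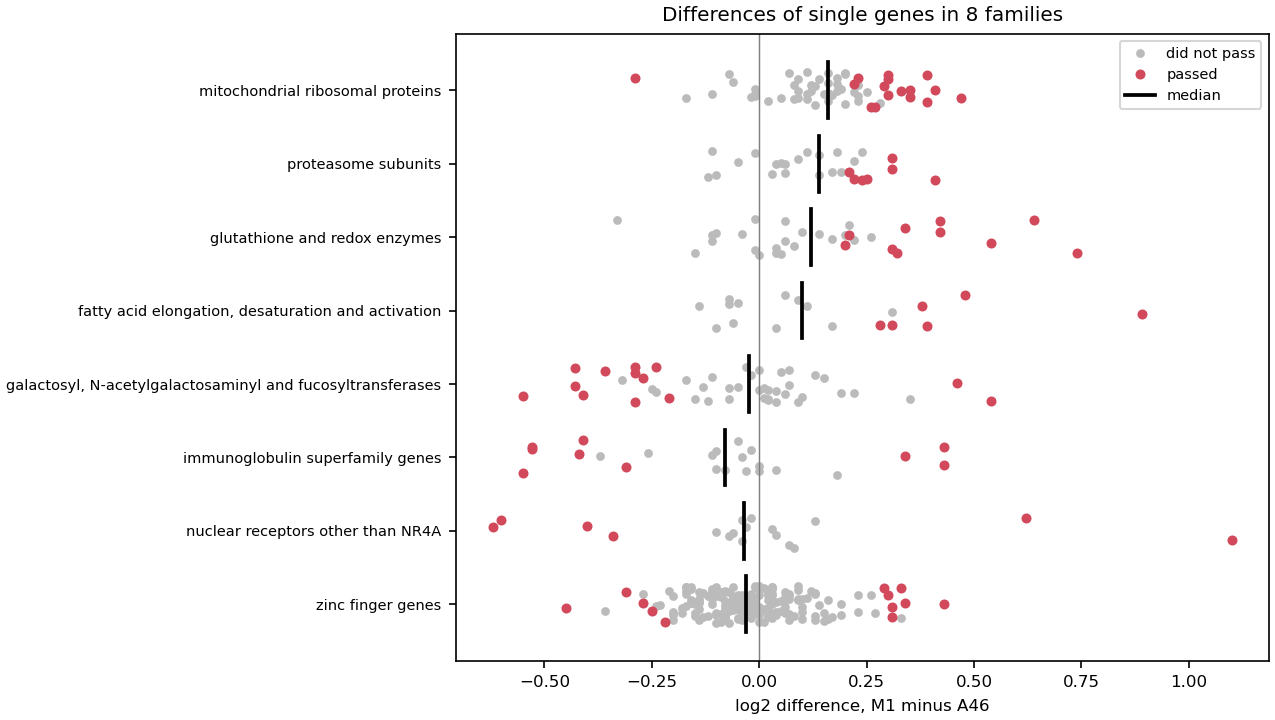
Log2 difference M1 minus A46 of each tested gene in 8 families; red points passed, grey points did not, black bars are medians, and the vertical scatter has no meaning. The mitochondrial ribosomal proteins lie mostly to the right of 0 (51 of 60), and the zinc finger genes centre on -0.03.

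Enzymes of glutathione and redox metabolism had 10 of 32 members higher and 0 lower, with a median of 0.12; without animal 2 the count was 1. GSTM4, a glutathione transferase, had 9.63, 9.72 and 9.36 in M1 and 9.03, 8.66 and 8.81 in A46 (0.74 ± 0.10) and was that member. The 3 microsomal glutathione transferases MGST1 (0.64), MGST2 (0.54) and MGST3 (0.42) were all higher, with adjusted p of 0.11, 0.222 and 0.178 without animal 2; with its probe set of median difference MGST3 was at 0.18 (adjusted p = 0.147). Of 18 genes of fatty acid elongation, desaturation and activation 6 were higher and 0 lower. ELOVL1, the elongase of very long chain fatty acids, had 8.08, 8.58 and 7.90 in M1 and 7.28, 7.22 and 7.39 in A46 (0.89 ± 0.12), and only it passed without animal 2. Of 21 lysosomal cathepsins and hydrolases 5 were higher and 0 lower, 1 of them without animal 2. Of these NPC1, the cholesterol exporter of the lysosome, held (0.84 ± 0.11), whereas GALC, LAMP2 and NPC2 had adjusted p of 0.0618, 0.0689 and 0.121 without animal 2. The oligodendrocyte marker sums above moved in the same direction in the same animals, and their part in these lists was not tested.

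Among glycosyltransferases most of the passing members were lower in M1. Of 46 galactosyl-, N-acetylgalactosaminyl- and fucosyltransferases 2 were higher and 11 lower (23.9%), although the median was only -0.02, and 0 passed without animal 2 (10 at an unadjusted p under 0.05). With arrays centred on their medians, 2 were higher and 3 lower. B4GALT2, which adds galactose to glycans, had 8.82, 8.79 and 9.05 in M1 and 9.51, 9.36 and 9.43 in A46 (-0.55 ± 0.07, adjusted p = 0.0585 without animal 2). GALNT1, which starts mucin-type glycans, was higher by 0.54 ± 0.07 (adjusted p = 0.0588 without animal 2). HS3ST2, which sulphates heparan sulphate, was higher by 0.61 ± 0.07 and held. Of 23 immunoglobulin superfamily genes 3 were higher and 6 lower, 0 and 1 of them without animal 2. Of 11 IgLON and contactin genes 2 were higher and 2 lower, 1 and 0 without animal 2. Contactin 6 (CNTN6) had 8.49, 8.14 and 8.41 in M1 and 7.85, 7.64 and 7.74 in A46 (0.61 ± 0.08) and was the 1 that held.

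Genes with little annotation were also measured. Of 666 genes known only by a LOC number 56 were higher (8.41%) and 15 lower (2.25%); 4 of them passed without animal 2. LOC697178 (0.64 ± 0.07) and LOC702244 (-0.49 ± 0.06) held. Of 131 transmembrane protein (TMEM) genes 14 were higher (10.7%) and 6 lower (4.58%), near the 8.77% and 5.89% of all genes. Without animal 2 the TMEM counts were 2 and 1. TMEM144 had 9.23, 9.21 and 8.19 in M1 and 7.48, 6.89 and 6.91 in A46, a 3.44-fold difference, TMEM98 was higher by 0.99 ± 0.12, and TMEM200C was lower at -0.66 ± 0.07. Of 77 open reading frame genes 3 were higher and 2 lower (0 and 1 without animal 2), and C1H1orf115 alone held, lower at -0.52 ± 0.06. Of 54 coiled-coil domain genes 2 were higher and 0 lower, and 0 passed without animal 2. Probe sets without a single gene symbol, 10485 of those tested, passed at 11.3%, and those with one at 13.8%.

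Neighbouring genes that passed together were counted, where 8.77% of all genes tested were higher and 5.89% lower. Whether the counts differ from what these shares alone would give was not tested. Of 9896 pairs next to each other in the gene order of the T2T-MMU8v2.0 annotation, 141 had both members passing in 1 direction and 90 in opposite directions. There were 13 runs of at least 3 tested neighbours passing in 1 direction, 8 higher and 5 lower, with 0 runs without animal 2, 3 without animal 1, and 39 without animal 3. The longest comprised 4 genes, LOC705198, ZDHHC20, MICU2 and FGF9, with differences of 0.28, 0.51, 0.34 and 0.70. Of these FGF9 held, and the other members had adjusted p of 0.218, 0.226 and 0.275 without animal 2. In the run GLRB, GASK1B and TMEM144 the first and last held: GLRB, the beta subunit of the glycine receptor, had 9.96, 9.79 and 9.64 in M1 and 9.29, 9.35 and 8.99 in A46 (0.59 ± 0.07). GASK1B, higher by 0.44, had adjusted p = 0.221 without animal 2. In the lower run SH2D4B, PLAC9 and DYDC2 the differences were -0.93, -0.53 and -0.38, and SH2D4B held, with adjusted p of 0.0692 and 0.135 for the others without animal 2.

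With the left arrays alone 561 genes passed, and with the right arrays alone 1275. Of the 189 genes that held, 187 passed in the left arrays alone and 189 in the right. All 1473 passing genes had 1 sign in left and right arrays, where 79.5% of the 10043 genes tested did; the genes were selected on the mean of both hemispheres, so their shared sign is a description. A test of the difference between hemispheres passed for 0 probe sets in limma, with 505 (1.91%) at an unadjusted p under 0.05. In dorsal and ventral premotor cortex, which lie between these areas, both means lay between those of M1 and A46 for 184 of the 189 genes (97.4%) and for 34.3% of all genes tested. The 189 were chosen for their gap between M1 and A46, so this is a description too.

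**Figure D5:**
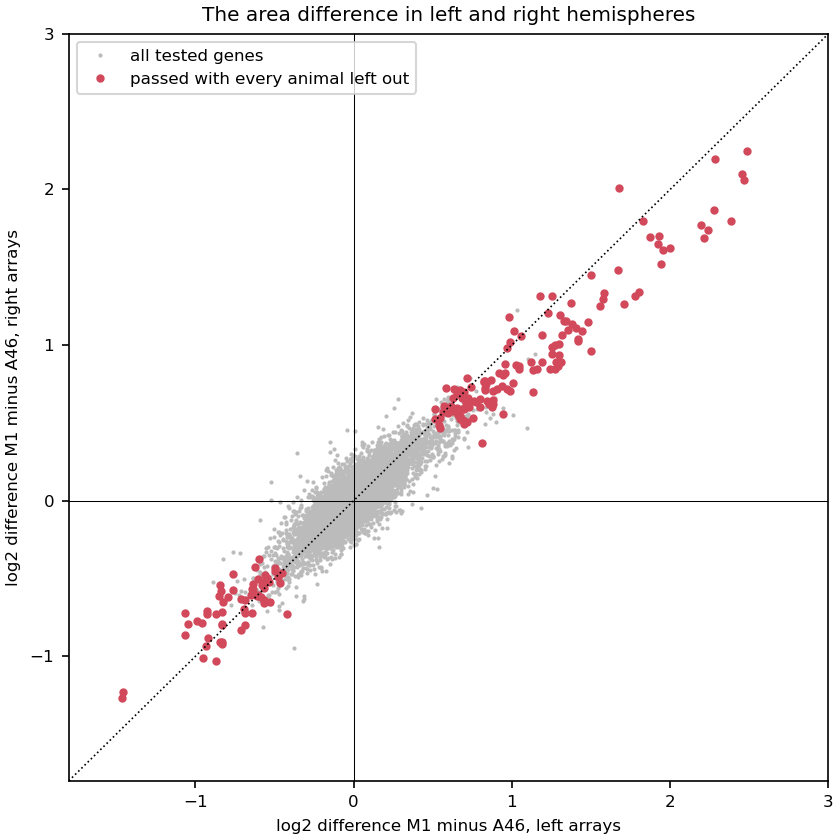
Log2 difference M1 minus A46 in the right against the left arrays for all 10043 genes (grey) and the 189 that held (red); the dotted line marks equal values. All 189 have 1 sign in both hemispheres, on whose mean they were selected.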

How the data were processed

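Total RNA of each dissected piece was labelled with biotin and hybridised to 1-colour Affymetrix Rhesus arrays, per the labels' protocols. The deposited values are linear intensities per probe set, summarised with RMA, per the submitters' processing notes (no version given there). RMA scales arrays to each other, so a shift of all transcripts in 1 area may not be visible. Median intensity of the M1 and A46 arrays was 47.9 to 50.6. Arrays have no read depth, and 3 animals limit the precision; beyond the animals, p-values measure only the spread between these samples. As a measure of RNA integrity, the log2 excess of 3' over 5' control probe sets was compared. For GAPDH it was 0.995 to 1.097 in M1 and 0.876 to 0.986 in A46. For actin it was 0.899 to 1.0 in M1 and 0.958 to 1.156 in A46, so the means of these 2 controls differed in opposite directions. The part of RNA integrity in the differences was not tested.

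Intensities were converted to log2 (floor 1). From 52865 probe sets 99 controls were removed; 24956 had 1 gene symbol, 361 several and 27449 none. Probe sets with a mean log2 below 5.62 were left out, and a gene was represented by its probe set of highest mean (4089 of 14132 named genes fell below). In limma 3.58.1 under R 4.3.3, lmFit and eBayes with an intensity trend were run on 12 animal-by-area means of all 4 areas, with area and animal as terms; the test was two-sided. The animal is a block because each animal gave every area. Deviations from the area means correlated at 0.555 to 0.576 between M1 and A46 of 1 animal, and at -0.403 to -0.212 between different animals. Centring each area on 3 animals pulls the latter below 0 when the former are positive, so they are not separate evidence. The fit was also run on simulated data. These followed the fit's own assumptions, so they cannot show that the calls hold for these animals.

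Genes named by size were the 25 each way with the largest differences among those that held, without a list of genes already described for these data; in each family up to 4 members that held, or up to 2 that passed, were named, with the genes of neighbour runs and the markers. Other genes were chosen after their values were seen. Some lists are not reported here. The members and all lists were chosen with earlier results of these data known, so family counts carry no test. Gene order came from the T2T-MMU8v2.0 annotation; no coordinates were used. Alternatives were the block, areas in the fit, each hemisphere, filters, scalings, the floor, the trend, the probe set per gene and leaving out each animal.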

Additional observations from a re-analysis of the deposited data

Results flagged for a closer look

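Among the 6 arrays of each area, 272 groups of values (136 genes in 2 areas) were examined for 1 array standing apart, measured as its gap to the next array over the range of the group, by Dixon's test. Chance flags about 1 in 20 groups of independent values, and 5 were found, fewer than that rate. The 6 arrays were 2 hemispheres of 3 animals and not independent, so the rate may not apply here. MLIP in M1 had a ratio of 0.743: the left array of animal 1 read 6.93 and the others 6.61 to 6.69, all below the A46 arrays. NR1H4 in M1 had a ratio of 0.66, with the left array of animal 2 at 8.58 and the others at 7.97 to 8.17. TFRC in M1 had a ratio of 0.787, with the right array of animal 2 at 9.46 against 9.77 to 9.85. GPRC5B in M1 had a ratio of 0.7, with the left array of animal 2 at 11.04 and the others at 10.54 to 10.69. SMYD2 in M1 had a ratio of 0.653, with the left array of animal 3 at 9.20 and the others at 9.40 to 9.51.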

How the results depend on the processing

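Without the animal block, that is with pairing ignored, 1056 probe sets and 486 genes passed, against 3391 and 1473. Left arrays alone gave 1263 probe sets and 561 genes, arrays centred on their medians 2151 and 954, and the spread covariate 6423 and 2644. Leaving out 1 animal gave 403 (without animal 2) to 5410 (without animal 3) probe sets, 190 to 2253 genes, and 0 to 39 neighbour runs. The 13 runs became 0 without the block and 0 in the left arrays, 7 with only M1 and A46 in the fit, 6 without the filter, 5 with centred arrays, 27 after quantile normalization and 49 with the spread covariate. Of 44 family counts, 29 moved by over 1.5 times without the block, 28 in the left arrays, 15 with centred arrays, 22 with the spread covariate, and 19, 38 and 20 without animals 1, 2 and 3. The mitochondrial ribosomal proteins went from 15 higher to 1 without the block.

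Of 136 genes named, 26 lost their call without the block and 10 in the left arrays, and 136 of 136 kept side and direction with only M1 and A46 in the fit, without the trend and with a floor of 16. With the probe set of median difference, DDX24 (-0.03), CREB3L3 (-0.01), RAB5C (-0.22) and SYNPR (0.04) turned sign. Among genes that did not pass, signs turned for BCAN (0.01 in the left arrays, -0.16 to 0.04 with 1 animal left out), HAPLN3 (-0.00 in the right arrays, -0.02 to 0.04 with 1 animal left out), NECTIN4 (0.05 in the right arrays, 0.01 with the spread covariate, -0.12 to 0.04 with 1 animal left out) and TENM4 (0.04 in the right arrays, 0.00 with centred arrays, -0.04 to 0.03 with 1 animal left out). The cause was not tested.

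The number of animals, 3, limits every call, and dim probe sets were left out.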

Other observations

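Further genes that held in M1 against A46, chosen after their values were seen unless stated, had roles outside the groups described. Basigin (BSG), a membrane glycoprotein that accompanies lactate transporters, had 10.70, 10.53 and 10.53 in M1 and 9.60, 9.49 and 9.5 in A46 (1.06 ± 0.07, 2 of 3 probe sets of this sign). Its areas did not overlap, but with the probe set of median difference the value was 0.08 (adjusted p = 0.491). Galectin 1 (LGALS1), a lectin that binds galactosides, had 8.86, 8.99 and 7.98 in M1 and 7.62, 7.65 and 7.39 in A46 (1.05 ± 0.12; adjusted p = 0.0738 without the animal block), and the tetraspanin CD9 was higher by 1.12 ± 0.16. The methyltransferase SMYD2 was higher by 0.67 ± 0.08 and FRYL by 0.79 ± 0.10, and both belonged to runs of 3 neighbours higher in M1. The RING finger ubiquitin ligases RNF13 (0.79 ± 0.09) and RNF130 (0.74 ± 0.08) and the orphan receptor GPRC5B (0.72 ± 0.07) were named by the family rule. RAB5C, a GTPase of early endosomes, was higher by 0.96 ± 0.09 in 1 of its 3 probe sets only, and at -0.22 with the probe set of median difference.

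Lower genes named by size but not described above were ZSWIM8, a substrate receptor of a ubiquitin ligase, with 9.42, 9.26 and 9.33 in M1 and 10.08, 10.10 and 10.04 in A46 (-0.74 ± 0.07), and the lactonase PON2 with 8.94, 9.05 and 9.09 against 9.56, 9.84 and 9.73 (-0.68 ± 0.09). Neither overlapped between the areas. DNAJA4, a co-chaperone of Hsp70, was lower at -0.61 ± 0.07, SOWAHA at -0.63 ± 0.07 and TCERG1L at -0.60 ± 0.09.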
